A study of Oryza sativa Japonica Group with 12 samples.

Results

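The respiratory burst oxidase genes of rice were followed in roots of seedlings whose leaves had been sprayed with piperonylic acid. The members were the rows of the deposited table with the 9 identifiers listed for this family, and all 9 were found among its 35833 rows. The files name none of the 9, and 0 of them could be matched to the reference, so each gene is called by its identifier and no single role is given to it. By the chromosome number that their identifiers carry, Os01g0360200, Os01g0734200 and Os01g0835500 lie on chromosome 1, Os05g0465800 and Os05g0528000 on chromosome 5, and Os08g0453700, Os09g0438000, Os11g0537400 and Os12g0541300 on chromosomes 8, 9, 11 and 12.

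Respiratory burst oxidases are plasma membrane NADPH oxidases of plants. They take electrons from NADPH in the cytosol and pass them through haem groups to oxygen outside the cell, which gives superoxide and, after dismutation, hydrogen peroxide. In roots and leaves the family is known for the oxidative burst of immunity, for root hair and lateral root growth and for the programmed formation of air spaces. Calcium-binding EF hands at the N terminus and phosphorylation by calcium-dependent and receptor-associated kinases regulate the enzymes, so transcript level is only one of the controls on their activity.

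Piperonylic acid inhibits the cytochrome P450 that hydroxylates cinnamate, a step early in phenylpropanoid and lignin synthesis. Root libraries of the cultivar Nipponbare formed 4 groups of 3. At 24 h and at 6 h these were roots after a leaf spray with 300 µM piperonylic acid and roots after a mock spray. The sample records give 0.1% Tween 20 for the treated and the mock groups alike. Plants were moved to individual tubes 5 days after germination and sprayed 13 days after transplanting, and each sample pooled 4 plants that were 14 days past transplanting in the 24 h groups and 13 days in the 6 h groups. The sample labels call the times hours after a second treatment, and the series title names inoculation with the root-knot nematode Meloidogyne graminicola, but the sample labels give neither an inoculation nor the first treatment for any group. Nothing was said of separate cultures or days, so p-values measure the spread between these samples, and in whole roots fewer cells of a type and less RNA per cell cannot be told apart.

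Libraries came from the 3′ ends of transcripts, so a read counts a transcript end and values were not divided by gene length. Recovered reads ran from 6302056 to 10254382 in 11 libraries and were 20301774 in mock replicate 1 of 24 h. Mock replicate 2 of 24 h stood apart on the third principal component of the 19207 genes tested, at 50.2, where the remaining 11 lay between -21.0 and 12.3. Identifiers listed for root markers (RCc3 and silicon transporters by intent) summed to between 38160 and 55572 normalised counts per library. Those listed for leaf markers (Rubisco small subunit and chlorophyll-binding proteins by intent), 7 in number and none at 0, summed to between 441 and 1742.

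Of the 9 genes, 6 were tested, since their 12-library mean reached 10 normalised counts, while 3 fell under this limit. Levels across libraries are given as reads divided by size factors computed over all 12 libraries, while percentiles rank the 12-library means of the deposited values. Os01g0360200 was the most abundant member, with a mean of 484 normalised counts and a range from 392 to 574, at the 83.4th percentile of the genes tested. Os05g0528000 and Os09g0438000 came next, with means of 308 and 293 and ranges that overlapped, from 259.7 to 371 and from 211 to 409.5. Os01g0835500 averaged 115 normalised counts, at the 50.1st percentile, Os11g0537400 averaged 59.0 and Os12g0541300 averaged 24.6, at the 15.6th percentile. Os08g0453700, Os05g0465800 and Os01g0734200 averaged 4.07, 1.36 and 0.322 normalised counts.

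The order was stable among most neighbours. Os01g0360200 exceeded Os05g0528000 in 12 of 12 libraries, Os09g0438000 exceeded Os01g0835500 in 12 of 12, and Os01g0835500, Os11g0537400, Os12g0541300 and Os08g0453700 followed each other in this order in 12 of 12. The exception among the tested members was the pair Os09g0438000 and Os05g0528000. Os09g0438000 had more reads than Os05g0528000 in 4 of 6 libraries of 24 h and in 0 of 6 libraries of 6 h.

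**Figure D1:**
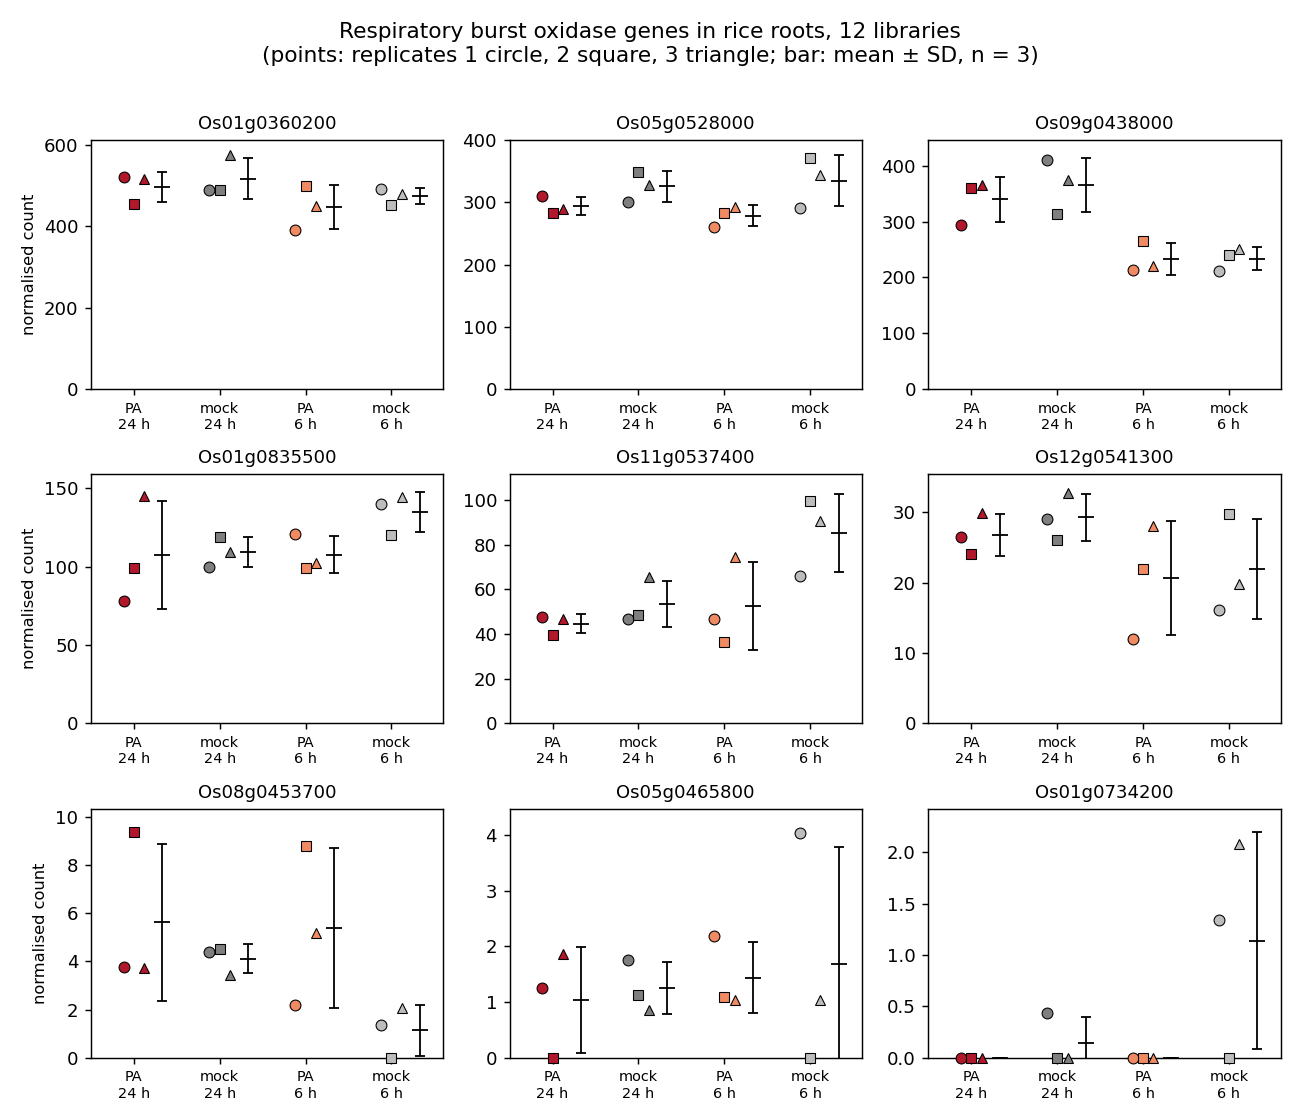
Normalised count (reads divided by size factors over all 12 libraries, linear axis from 0) of each of the 9 genes in each library, by group; points are libraries and bars are the mean ± SD of 3 (PA, piperonylic acid). Os09g0438000 lies between 293 and 409.5 at 24 h and between 211 and 265 at 6 h. The group means of Os01g0360200 run from 447 to 517 and those of Os05g0528000 from 279 to 335.

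Together the 9 genes took from 0.0122% to 0.0169% of the reads of a library. The deposited normalised counts of the 9 summed to 945, 1099.9 and 1057 in piperonylic acid roots of 6 h, against 1107, 1180.1 and 1206 in mock roots of 6 h. The 3 treated sums were below the 3 mock sums, with means of 1034 ± 80.0 and 1164 ± 51.4 (SD, n = 3 each). The highest treated sum, 1099.9, lay just under the lowest mock sum, 1107. Of all genes tested 19.6% had fully separate libraries at 6 h, in either direction. At 24 h the sums were 1416, 1405 and 1552 in piperonylic acid roots, against 1530.1, 1501 and 1657 in mock roots, which overlapped. The 24 h means were 1458 ± 81.7 and 1563 ± 83.2 (SD, n = 3 each). The deposited counts were scaled separately at each time, so these sums compare treatments within a time and not the times. Scaled over all 12 libraries, the means were 1146 in treated and 1289 in mock roots of 6 h. On that scaling they were 1317 in treated and 1406 in mock roots of 24 h. These sums are descriptions of the libraries and were not tested.

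The first question was whether the genes differed 6 h after the spray. No member passed in limma, whose adjusted p was at or above 0.139 for each of the 6 tested, and edgeR and DESeq2 called 0 as well. Over all genes limma called 1.66%, or 319 genes, and 802 with the replicate number of the titles as a block, again with 0 members. The source names number 3 libraries otherwise, and a block by those numbers gave 65 genes and 0 members. In 0 of 6 members did the treated and mock libraries separate fully, where 19.6% of all genes tested did so. An unadjusted limma p under 0.05 was reached by 2 members, Os11g0537400 and Os05g0528000, against 14.8% of all genes tested. The log2 estimate, piperonylic acid over mock, was negative for 6 of 6 members, with a median of -0.18, where 48.8% of all genes tested were negative and their median was 0.0063. Same-numbered libraries of 6 h deviated together over all genes, and 3 of 6 members, Os11g0537400, Os05g0528000 and Os01g0835500, were lower in the treated library in 3 of 3 such pairs, where 20.2% of all genes tested were. With the title number as a block their limma adjusted p were 0.113, 0.231 and 0.371. With the source-name number as a block they were 0.331, 0.591 and 0.627.

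Os11g0537400 had the lowest estimate. It had 42.3, 32.8 and 67.2 normalised counts in treated roots of replicates 1, 2 and 3, against 59.7, 89.6 and 81.8 in mock roots. Treated replicate 3 lay above mock replicate 1, so the groups overlapped, while each treated library was below the mock library of its own number. The reads behind each value were few, from 33 to 97, with a counting error of 10.2% to 17.4%. The group means were 47.5 ± 17.8 and 77.0 ± 15.5 normalised counts (SD, n = 3 each). The log2 fold change was -0.72 ± 0.24 (SE), with a 95% interval from -1.22 to -0.21 and a limma adjusted p of 0.139. Without treated replicate 3 it was -0.99, at a limma adjusted p of 0.0201, in a refit that called 741 of all genes, where the main fit called 319. Without treated replicate 2 it was -0.49, at a limma adjusted p of 0.458, in a refit that called 17. Summed leaf markers of these libraries ran from 441 to 632 normalised counts in treated roots, against 675 to 1742 in mock roots, and their part in this difference was not tested.

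Os05g0528000 had 234, 257 and 263 normalised counts in treated roots, against 263, 334 and 311 in mock roots. The highest treated value and the lowest mock value were 263.4 and 263.01, so the groups touched and did not separate. The log2 fold change was -0.26 ± 0.11 (SE), with a 95% interval from -0.48 to -0.04 and a limma adjusted p of 0.248. The coefficient of variation of this gene was 6.12% in treated and 11.9% in mock roots.

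Os01g0835500 had 109, 89.6 and 92.5 normalised counts in treated roots, against 127, 108 and 131 in mock roots. Treated replicate 1 lay just above mock replicate 2, and the log2 fold change of -0.32 ± 0.18 (SE) had a limma adjusted p of 0.460. Os01g0360200, the most abundant member, had 353, 452 and 404 normalised counts in treated roots, against 446, 407 and 433 in mock roots. Its fold was 0.937, with a 95% interval from 0.801 to 1.10. Os09g0438000 averaged 210.2 ± 26.0 normalised counts in treated and 211 ± 18.1 in mock roots (SD, n = 3 each), and its fold was 0.994, with an interval from 0.823 to 1.20. For these 2 abundant genes the intervals thus leave out a change of 1.5-fold either way. Os12g0541300 had 10.8, 19.9 and 25.2 normalised counts in treated roots, against 14.6, 26.8 and 17.9 in mock roots, from 11 to 29 reads per library. Its interval, from 0.606 to 1.43 in fold, was the widest of the 6 when read as a ratio of its ends.

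**Figure D2:**
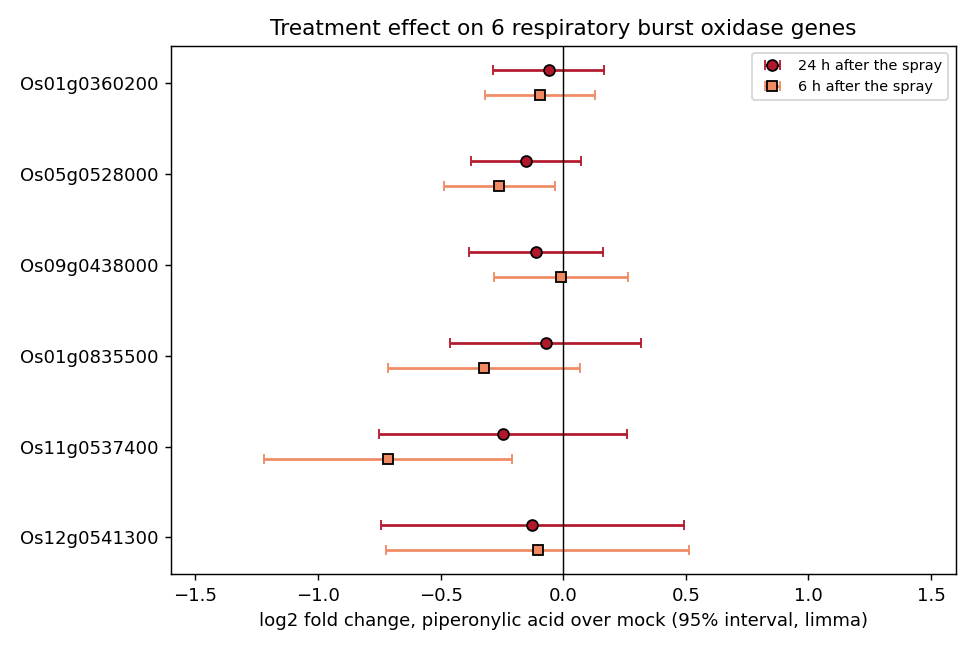
Log2 fold change, piperonylic acid over mock, of the 6 tested genes with 95% intervals from limma, at 24 h (circles, upper) and 6 h (squares, lower). All 12 estimates lie below 0, and the intervals of Os11g0537400 and Os05g0528000 at 6 h do not reach 0, while no adjusted p passed.

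At 24 h after the spray no member passed either. The adjusted limma p was at or above 0.886 for each of the 6, edgeR and DESeq2 called 0, and 0 had an unadjusted limma p under 0.05. The libraries of the groups overlapped for 6 of 6 members, and were fully separate for 11.8% of all genes tested. Over all genes limma called 0.115%, and 6.11% had an unadjusted p under 0.05. The log2 estimate was again negative for 6 of 6, with a median of -0.12, where 51.9% of all genes were negative and their median was -0.0090. Both times gave a negative estimate for 25.7% of all genes tested.

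The values of 24 h were close between the groups. Os05g0528000 had 343, 313 and 321 normalised counts in treated roots, against 333, 388 and 365 in mock roots, a log2 fold change of -0.15 ± 0.11 (SE). Os11g0537400 had 52.8, 43.9 and 51.7 normalised counts in treated roots, against 51.7, 54.2 and 72.7 in mock roots, a log2 fold change of -0.25 ± 0.24 (SE). Mock replicate 3 was the only one of the 6 libraries far from the rest for this gene. Os01g0835500 had 86.1, 109.7 and 161 normalised counts in treated roots, against 111, 132 and 122 in mock roots. Treated replicates 1 and 3 of this gene lay on either side of all 3 mock libraries, and the coefficient of variation was 32.3% in treated and 8.92% in mock roots.

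Os01g0360200 averaged 551 ± 40.8 normalised counts in treated and 575 ± 56.0 in mock roots of 24 h (SD, n = 3 each), a fold of 0.960 with a 95% interval from 0.821 to 1.12. Os09g0438000 averaged 376 ± 45.3 and 406 ± 54.0 normalised counts (SD, n = 3 each), a fold of 0.926 with an interval from 0.767 to 1.12. Os12g0541300 averaged 29.6 ± 3.29 and 32.5 ± 3.70 normalised counts (SD, n = 3 each), a fold of 0.917 with an interval from 0.597 to 1.41. Without mock replicate 2, the library that stood apart, the 6 estimates of 24 h ran from -0.30 to -0.01, with a median of -0.15 and 0 called.

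The treatment effect did not pass as different between the times for any member. For the effect at 24 h minus that at 6 h, limma and edgeR called 0 of 6. DESeq2 called 0 as well, but gave no adjusted p for Os12g0541300. An unadjusted limma p under 0.05 was reached by 0 members, against 11.0% of all genes, and limma called 0.552% of all genes. The largest difference was that of Os11g0537400, at 0.47 on the log2 scale with a 95% interval from -0.24 to 1.18. That of Os01g0360200 was 0.03, with an interval from -0.28 to 0.35.

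The libraries differed in how many of the 6 members lay low or high in them. The matching counts over all genes were not taken, so these counts describe the libraries and whether the members moved together was not tested. Relative to the mean of the same time on the log2 scale, piperonylic acid replicate 1 of 6 h was below the mean for 5 of 6 members and lowest of the 6 libraries for 3. Replicate 2 of that group was lowest for 2 members and highest for 2, and mock replicate 2 of 6 h was highest for 3. At 24 h piperonylic acid replicate 2 was below the mean for 5 of 6 members and lowest for 4, while mock replicate 3 was below the mean for 0 of 6 and highest for 3. The median deviation over all genes tested stayed between -0.0002 and 0.0082 in these 12 libraries. The spread over libraries within a time was largest for Os11g0537400, at an SD of 0.40, then Os12g0541300, at 0.31, and Os01g0835500, at 0.25, and smallest for Os01g0360200, at 0.12.

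**Figure D3:**
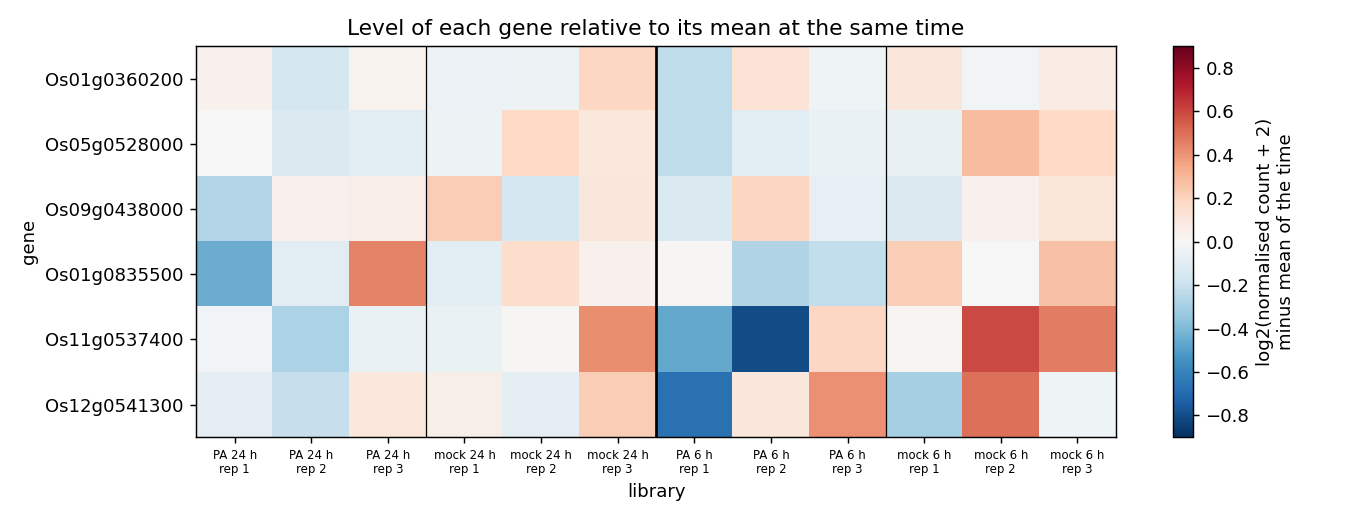
Deviation of each tested gene from its mean at the same time, as log2(normalised count + 2), in each of the 12 libraries (columns, 24 h left and 6 h right of the thick line, piperonylic acid left of mock within a time). The SD along a row is 0.40 for Os11g0537400 and 0.12 for Os01g0360200, and 3 of the 6 genes are lowest at 6 h in piperonylic acid replicate 1.

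The second axis of the design was time. Here one member passed in both treatments. Os09g0438000 had 293, 359.8 and 365 normalised counts, scaled over all 12 libraries, in piperonylic acid roots of 24 h, against 213, 265 and 221 in those of 6 h. All 3 values of 24 h were above all 3 of 6 h. The means were 339 ± 40.1 and 233 ± 28.1 (SD, n = 3 each), and the log2 fold change was 0.54 ± 0.13 (SE), or 1.45-fold, with a limma adjusted p of 0.00888. In mock roots it had 409.5, 313 and 375 normalised counts at 24 h, against 211, 239 and 250.5 at 6 h, which again did not overlap. There the means were 366 ± 49.1 and 234 ± 20.2 (SD, n = 3 each), and the log2 fold change was 0.64 ± 0.13 (SE), or 1.55-fold, with a limma adjusted p of 0.00213. It passed by edgeR, at adjusted p of 0.00932 in treated and 0.00211 in mock roots, and by DESeq2, at 0.00536 in treated and 0.000337 in mock roots. The time effect in treated minus that in mock roots equals the difference of the treatment effects, which was -0.10 with a 95% interval from -0.49 to 0.28 for this gene. Without mock replicate 2 of 24 h the change in mock roots was 0.74, at a limma adjusted p of 0.000975.

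A called change with time is frequent in this series. Limma called 13.9% of all genes in piperonylic acid roots and 17.2% in mock roots. Those higher at 24 h were 6.82% in piperonylic acid and 8.10% in mock roots, and 15.7% in piperonylic acid and 16.6% in mock roots had every 24 h library above every 6 h library. Hours after the spray, the age of the plants, 14 against 13 days after transplanting, and the time of day cannot be told apart. The sample records used here give 12 h of light and no clock time of spray or harvest. The submitters' values had been scaled separately at each time, and on those values the log2 fold changes of Os09g0438000 were 0.83 in piperonylic acid and 0.93 in mock roots.

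The share of a gene in the reads of the 9 genes does not depend on the scaling. Os09g0438000 made up 22.9% to 29.7% of the family's reads in the 6 libraries of 24 h, against 17.3% to 21.8% in the 6 libraries of 6 h. Wilson 95% limits of single libraries ran from 20.4% to 31.3% at 24 h and from 15.0% to 24.3% at 6 h, and they cover counting error only. The share averaged 25.8% ± 2.76 in piperonylic acid roots of 24 h and 20.3% ± 1.5 in those of 6 h (SD, n = 3 each). It averaged 26.0% ± 3.33 in mock roots of 24 h and 18.1% ± 0.767 in mock roots of 6 h (SD, n = 3 each). Os01g0360200 kept the first place, with 35.4% to 40.6% at 24 h and 34.5% to 41.1% at 6 h. Os05g0528000 held 20.7% to 25.9% at 24 h and 23.3% to 28.3% at 6 h, which overlapped.

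**Figure D4:**
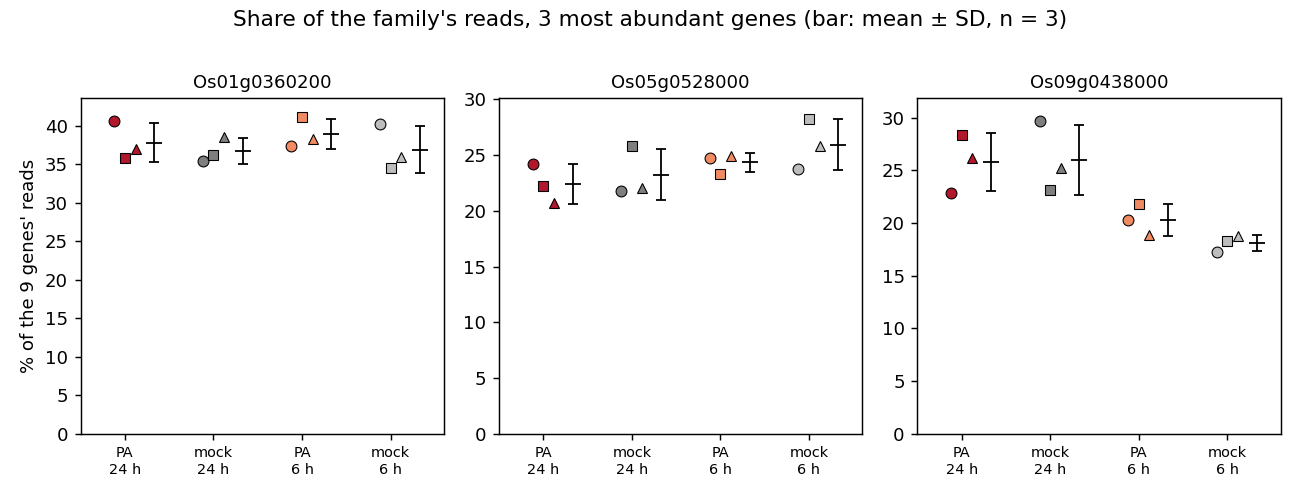
Share of the reads of all 9 genes, in percent on axes from 0, that fell on each of the 3 most abundant genes, by library and group; bars are the mean ± SD of 3 libraries. Os09g0438000 takes 22.9% to 29.7% in the 24 h libraries and 17.3% to 21.8% in the 6 h libraries, and the ranges of the other 2 genes overlap between the times.

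The other 5 tested members did not pass between the times. In piperonylic acid roots the log2 fold change of Os11g0537400 was -0.17 ± 0.24 (SE), and its libraries of the 2 times overlapped. In mock roots 2 of the 5 had every 24 h library below every 6 h library, Os11g0537400 and Os01g0835500, where 16.6% of all genes did so. Os11g0537400 had 46.6, 48.7 and 65.3 normalised counts scaled over 12 libraries in mock roots of 24 h, against 65.9, 99.6 and 90.4 in those of 6 h. The log2 fold change was -0.65 ± 0.24 (SE), and limma gave an adjusted p of 0.0768. It passed without piperonylic acid replicate 3 of 6 h and without mock replicate 1 of 6 h, at 0.0379 and 0.0458. This comparison and that of treated with mock roots at 6 h share the 3 mock libraries of 6 h.

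Os01g0835500 had a log2 fold change with time of -0.04 ± 0.18 (SE) in piperonylic acid roots. It had 99.7, 119 and 109 normalised counts in mock roots of 24 h, against 139.9, 120.1 and 144 in those of 6 h. The log2 fold change was -0.30 ± 0.18 (SE), and limma gave an adjusted p of 0.312. Os12g0541300 had log2 fold changes of 0.41 ± 0.29 (SE) in treated and 0.42 ± 0.29 (SE) in mock roots, with limma adjusted p of 0.424 and 0.377. Os01g0360200 had log2 fold changes of 0.16 in treated and 0.12 in mock roots, and Os05g0528000 had 0.08 in treated and -0.04 in mock roots.

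**Figure D5:**
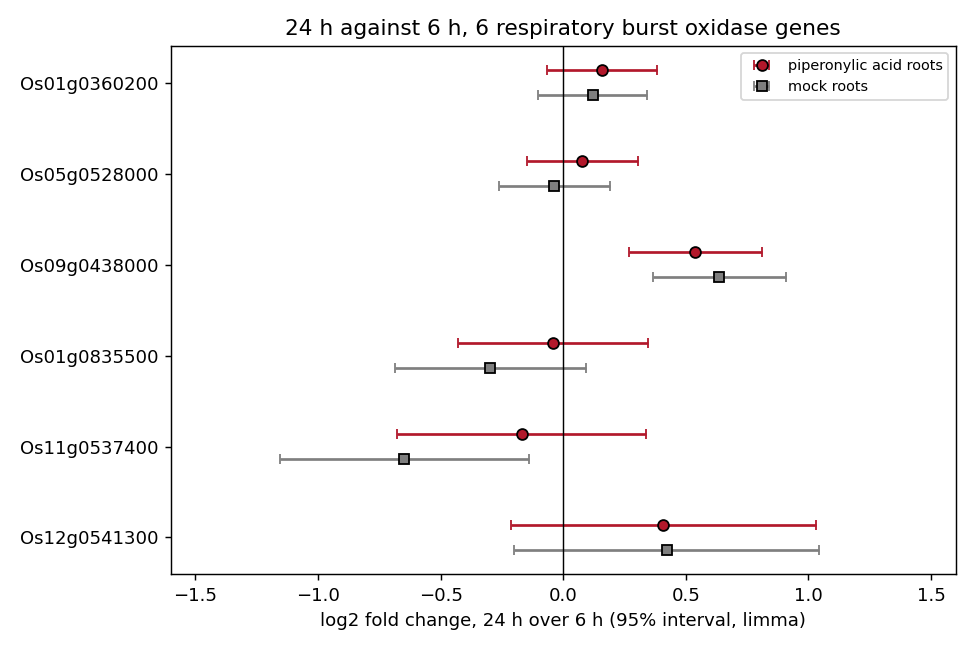
Log2 fold change, 24 h over 6 h, of the 6 tested genes with 95% intervals from limma, in piperonylic acid roots (circles, upper) and mock roots (squares, lower), from values scaled over all 12 libraries. Os09g0438000 lies at 0.54 and 0.64 with both intervals above 0, and Os11g0537400 in mock roots lies at -0.65 with an interval from -1.16 to -0.14 and an adjusted p of 0.0768.

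The 3 members under the limit were at the edge of detection. Os08g0453700 had 2, 8 and 5 reads in piperonylic acid roots of 6 h, against 1, 0 and 2 reads in mock roots of 6 h. In normalised counts the means were 4.87 ± 3.00 and 1.03 ± 0.953 (SD, n = 3 each), and every treated library was above every mock library, where 9.88% of the genes tested were. Treated replicate 1 and mock replicate 3 had 2 reads each, so between them the order rests on the size factors alone. The two-sided exact permutation p of 0.1, the smallest that 3 libraries against 3 can give, rests on that order too. The ratio of the summed reads, 15 against 3, scaled for depth, was 4.80, with an exact 95% counting interval from 1.36 to 25.9 that leaves out the spread between samples. In a limma fit with no limit on low values it had a log2 fold change of 1.13 ± 0.44 (SE) and an adjusted p of 0.301. At 24 h it had 3, 9 and 4 reads in treated roots, against 10, 4 and 4 in mock roots, which overlapped.

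Between the times Os08g0453700 had 16 reads in piperonylic acid roots of 24 h, against 15 in those of 6 h. It had 18 reads in mock roots of 24 h, against 3 in mock roots of 6 h, a depth-scaled ratio of 3.72 with an exact 95% counting interval from 1.09 to 19.7. The same 3 mock libraries of 6 h stand in both comparisons. Os05g0465800 had 0 to 4 reads per library and 17 in all, and its groups overlapped in each comparison, with two-sided exact permutation p from 0.6 to 0.9. Os01g0734200 had 0 reads in the 6 piperonylic acid libraries, against 1 read in all at 24 h and 3 reads in all at 6 h in mock roots. A count of 0 allows up to 3 reads, or 2.80 to 4.17 normalised counts in these 6 libraries, and no mock library was above this limit. In the limma fit with no limit on low values Os01g0734200 had an unadjusted p of 0.0249 and an adjusted p of 0.332 between treated and mock roots of 6 h, and 0.0456 and 0.229 between mock roots of 24 h and 6 h.

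Beside the family, 2 lists of genes of the same pathway were read, with memberships recalled from published loci that no file could check. The first was meant to hold regulators of the oxidases, such as the chitin receptor, receptor-like cytoplasmic kinases, a Rac GTPase, MAP kinases and calcium-dependent kinases. Of its 10 tested genes 0 passed in piperonylic acid against mock roots at either time by limma, with medians of -0.05 at 24 h and -0.01 at 6 h on the log2 scale, and 0 at 24 h and 3 at 6 h had an unadjusted p under 0.05, where 6.11% and 14.8% of all genes had. The log2 values of the list ran from -0.27 to 0.49 at 24 h and from -1.16 to 0.12 at 6 h. With time, 1 of 10 fell in piperonylic acid roots, where 7.12% of all genes did. It was Os04g0584600, at -0.43 ± 0.13 (SE) and a limma adjusted p of 0.0434. That call was lost in 7 of 23 refits, among them those without treated replicates 1 and 3 and mock replicate 1 of 24 h and treated replicates 2 and 3 of 6 h. In mock roots 3 of 10 fell, where 9.13% of all genes did. Os02g0126400 had a log2 fold change of -1.39 ± 0.28 (SE) at a limma adjusted p of 0.00617, which was 0.0766 with the 6 mock libraries alone. Os03g0285800 had one of -1.34 ± 0.27 (SE) at a limma adjusted p of 0.00770, and Os04g0584600 one of -0.76 ± 0.13 (SE) at 0.000744.

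The second list was meant to hold superoxide dismutases, catalases and ascorbate peroxidases, which act on the superoxide and hydrogen peroxide that the oxidases give rise to. Of 18 genes 17 were tested. At 24 h 0 of 17 passed by limma, where 0.115% of all genes did, and 2 had an unadjusted p under 0.05, where 6.11% of all genes had. At 6 h 1 of 17 fell in piperonylic acid roots and 0 rose, where 0.901% of all genes fell. The one that fell was Os04g0223300, at a log2 fold change of -0.56 ± 0.12 (SE) and a limma adjusted p of 0.0330. Leaving out 1 library ended its call in 5 cases, namely each mock replicate of 6 h, treated replicate 1 of 6 h and treated replicate 2 of 24 h, at adjusted p up to 0.146. Over all 23 refits Os04g0223300 lost this call in 7, at adjusted p up to 0.154. Its effect at 24 h exceeded that at 6 h by 0.87 ± 0.17 (SE) at a limma adjusted p of 0.0304. That call was lost in 10 of 22 refits, 9 of them among the 12 without 1 library. Those 9 left out each treated replicate of 24 h, mock replicates 1 and 3 of 24 h, treated replicate 1 of 6 h and each mock replicate of 6 h. With time, 3 of 17 rose and 2 fell in piperonylic acid roots, where 6.82% of all genes rose and 7.12% fell. In mock roots 3 of 17 rose and 2 fell, where 8.10% of all genes rose and 9.13% fell. Os04g0223300 was among those that rose in piperonylic acid roots, at a log2 fold change of 0.50 ± 0.12 (SE) and a limma adjusted p of 0.00851. In mock roots it was among those that fell, at -0.37 ± 0.12 (SE) and a limma adjusted p of 0.0415, a call lost in 13 of 23 refits. Among these were the refits without treated replicates 1 and 2 and mock replicates 1 and 3 of 24 h and without treated replicate 3 and each mock replicate of 6 h. Os02g0115700 had the lowest value in both, at -1.80 ± 0.20 (SE) in piperonylic acid and -1.29 ± 0.20 (SE) in mock roots, with limma adjusted p of 0.000121 and 0.00105, and kept its call in 23 of 23 refits of each. Os07g0694700 rose in both, at 0.40 ± 0.08 (SE) in piperonylic acid and 0.30 ± 0.08 (SE) in mock roots, with limma adjusted p of 0.00210 and 0.0123. The call in mock roots was lost in 2 of 23 refits, one of them without mock replicate 3 of 6 h.

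The remaining 3 called genes of this list lost their call in some refits. Os03g0351500 rose by 0.40 ± 0.11 (SE) on the log2 scale in piperonylic acid and by 0.40 ± 0.11 (SE) in mock roots, at limma adjusted p of 0.0240 and 0.0200. Leaving out 1 library ended the call 3 times in piperonylic acid roots (treated replicates 1 and 2 of 24 h and 3 of 6 h) and 4 times in mock roots (mock replicates 2 and 3 of 24 h and of 6 h). Os05g0323900 fell in piperonylic acid roots, at a log2 fold change of -0.30 ± 0.09 (SE) and a limma adjusted p of 0.0260. This call was lost in 8 of 23 refits, among them those without treated replicates 1 and 2 of 24 h and without each treated replicate of 6 h. Os03g0285700 rose in mock roots, at 0.31 ± 0.10 (SE) and a limma adjusted p of 0.0397. This call was lost in 10 of 23 refits, among them those without treated replicate 1 and mock replicates 2 and 3 of 24 h and without treated replicate 2 and mock replicates 1 and 3 of 6 h.

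Among all genes tested outside the family, the one whose pattern over the 12 libraries was nearest to a member was sought for the 3 members that varied most. Likeness was the root mean squared difference of log2 values centred within each time. Nearest to Os11g0537400 was Os01g0672400, at 0.17, which averaged 295 ± 70.6 normalised counts in piperonylic acid and 488 ± 76.7 in mock roots of 6 h (SD, n = 3 each). Nearest to Os12g0541300 was Os05g0163300, at 0.14, and nearest to Os01g0835500 was Os02g0601700, at 0.077. These genes were picked as the nearest of all tested, so the closeness itself carries no test.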

How the data were processed

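The submitters' processing notes name DESeq2, STAR 2.6.1d, Trimmomatic 0.38 and FastQC 0.11.8. For the genome build and the read counter, nothing was given in the sources used here. What the authors deposited is a signal per gene and sample in 1 table, and its values are whole reads scaled by 1 factor per library. Whole reads were recovered by dividing by the value of 1 read; at least 99.985% of values above 0 came out whole within 0.01. The size factors had been computed within each time, so they differed by up to 11.1% from median-of-ratios factors over all 12 libraries. Treatment effects were therefore tested on the deposited values and time effects on reads rescaled over all 12 libraries.

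The 19207 genes whose mean reached 10 normalised counts were tested as log2(value + 2), which understates fold changes of low genes. The model was 4 group means over 12 libraries, fitted with limma 3.58.1 (R 4.3.3) with robust moderation and a trend. Benjamini-Hochberg adjustment ran over all genes tested, with 0.05 as the threshold. Members under the limit had exact two-sided permutation tests (SciPy 1.17.1). Alternatives were edgeR 4.0.16 and DESeq2 1.42.0 on recovered reads, other pseudocounts, limits, scalings, sample weights and replicate blocks, and each library left out. The limma fit was tested on simulated counts. For the 6 h contrast it recovered 21 of 100 genes changed 1.5-fold and 65 of 100 changed 2-fold, with 6 false calls. For the 24 h contrast it recovered 17 of 100 and 66 of 100, with 5 false calls, so most changes of 1.5-fold were missed. Replicates of a group differed beyond sampling noise, with chi-square over its degrees of freedom from 4.80 to 24.5, so none was counted as a repeat.

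Groups and replicate numbers came from the titles; 3 source names carry another number. Same-numbered libraries of 6 h deviated together, with correlations of 0.305, 0.288 and 0.126. They were therefore also compared as pairs, which rests on the data and not on the labels. The main fit held no block, and the block was an alternative. The genes named were the 9 members, the called genes of 2 lists and the nearest gene to each of 3 members. Members and lists were chosen with earlier results of these data known.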

Additional observations from a re-analysis of the deposited data

How the results depend on the processing

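Over 23 alternatives per comparison (22 for the difference of effects), 639 of 679 log2 values of single members kept their direction and their side of the threshold, 7 passed newly and 33 turned sign, all of them in effects that did not pass. The number of members called was 0 in all refits for treatment at 24 h and for the difference, and it was 0 to 1 at 6 h and, for time, always 1 in piperonylic acid and 1 to 2 in mock roots when 1 library was left out. With the scaling as deposited it was 3 in piperonylic acid roots and 2 in mock roots, since that scaling adds a constant between the times, and with sample quality weights it was 2 in mock roots. Os09g0438000 passed in every refit of both time comparisons, at 0.48 to 0.83 in piperonylic acid and 0.55 to 0.93 in mock roots, with a limma adjusted p of 0.0483 at most in piperonylic acid roots, without treated replicate 2 of 24 h.

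Signs turned as follows, and beyond the scaling the cause was not tested; ranges are lowest to highest without 1 library. At 6 h Os09g0438000 was at 0.046 with the source-name block (range -0.11 to 0.053), and Os12g0541300 had a range of -0.34 to 0.21. At 24 h Os01g0835500 was at 0.00059 by edgeR (range -0.31 to 0.13) and Os01g0360200 at 0.028 with the source-name block (range -0.10 to 0.019). For the difference Os01g0360200 was at -0.016 with weights (range -0.057 to 0.12), and the ranges were -0.21 to 0.0018 for Os09g0438000 and -0.33 to 0.21 for Os12g0541300. In piperonylic acid roots the deposited scaling put Os01g0835500 at 0.25 (0.0045 by edgeR, 0.0091 by DESeq2, range -0.28 to 0.16) and Os11g0537400 at 0.11 (range -0.40 to 0.10). In mock roots it put Os05g0528000 at 0.26 (range -0.13 to 0.040).

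Over all genes, calls at 6 h numbered 319, against 65 to 802 under other settings and 4 to 741 without 1 library; at 24 h 22, against 0 to 53 and 3 to 30; for the difference 106, against 25 to 376 and 38 to 471. With time they numbered 2677 in piperonylic acid roots, against 2222 to 7186 and 1899 to 2875, and 3310 in mock roots, against 2847 to 7943 and 2462 to 3345. At 6 h the count was 11, 17 and 741 without treated replicates 1, 2 and 3, 4 without mock replicate 3, and more than 1.5 times lower without mock replicate 2 of 6 h and treated replicate 2 and mock replicates 1 and 3 of 24 h, so the share of all genes set beside the members there rests on single libraries. At 24 h it was 5 without treated replicate 1 or 2, 7 without treated replicate 3 and 3 without mock replicate 2 or 3. On recovered reads edgeR called 308 genes at 6 h and 26 at 24 h, and DESeq2 679 and 53. With a replicate block by the title numbers the calls were 802 at 6 h, and no call of a member changed there. At 24 h the numbers did not pair the libraries, with correlations of -0.187, 0.0505 and 0.0212, and the block gave 26 calls. A block within a time cannot pair libraries of 2 times, so for time it was set within each treatment, a choice made after the data were seen. Values of Os12g0541300 and the 3 untested members rest on few reads.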
